A study of Toxocara canis with 2 samples.

Results

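Vitellogenins are the large lipid-carrying precursors of egg yolk. In nematodes such as Caenorhabditis elegans they are made in the intestine of egg-laying worms, secreted into the body cavity and taken up by growing oocytes through RME-2, a receptor of the low-density lipoprotein receptor family. In C. elegans the DM-domain factor MAB-3 represses the vit genes in males, whereas factors such as UNC-62 and ELT-2 promote their transcription. The transcripts described here are the 2 unigenes, Unigene14425 and Unigene4105, whose first protein match in the Nr database was named simply vitellogenin, of 70267 unigenes seen in the whole-body libraries of a male and a female adult Toxocara canis. The files list them as Unigene14425_All and Unigene4105_All. A unigene is a transcript sequence assembled from the reads without a genome.

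The labels give T. canis, the roundworm of dogs, of strain Rongchang, and name no treatment. RNA came from the entire body of adult worms, 1 library for the male and 1 for the female, and from poly-A-selected RNA. The male library held 18.4 M fragments and the female library 19.8 M. Each sex has a single unreplicated library, which allows no test or p-value; every difference is between these libraries, and intervals cover counting error only. In whole-body RNA, a difference in the number of yolk-producing cells and a difference in RNA per cell cannot be told apart. The authors' table names a unigene only where they had called it different between the sexes, which applied to 30.3% of all unigenes. Both vitellogenin unigenes and every marker and list member therefore had to differ by the way they were found.

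Marker transcripts followed the sex labels. Of 70 sperm markers named in the table, 69 were higher in the male library, and they took 3.95% of male and 0.00325% of female fragments. Of 45 oocyte and eggshell markers, 40 were higher in the female library, and they took 9.56% of female and 0.0602% of male fragments. Of these 45, 44 were seen in the male library, at a median of 2.37 FPKM and at most 162 FPKM, where FPKM stands for fragments per kilobase of unigene and per 1000000 fragments of the library. Of 13 intestinal markers 12 were higher in the female library, with summed levels of 833 (male) and 2311 FPKM (female). Of all unigenes with a description in the authors' table, 50.5% were higher in the female library. The intestinal markers include aspartic proteases, as does the protease list below, so the lists are not separate observations. Of 73 muscle markers 48 were higher in the female library, with sums of 1252 (male) and 1389 FPKM (female). Of 28 cuticle and hypodermis markers 19 were higher there, with sums of 134 (male) and 212 FPKM (female). The part of these tissue markers in the vitellogenin values was not tested.

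Both vitellogenin unigenes are long and have the same best matches. Unigene14425 is 5514 bases and Unigene4105 is 5268 bases, and only 1.16% and 1.38% of all unigenes were longer. Both matched the same vitellogenin of the nematode Oscheius tipulae in Nr, with alignment scores of 1019 for Unigene14425 and 888 for Unigene4105 in the authors' deposited table. Their best Swiss-Prot match was the same vit-6 protein of Oscheius brevesophaga, with scores of 1003 and 877 in the authors' deposited table. Each carried gene ontology terms for reproduction and development, and only Unigene4105 also carried terms for a vesicle and a cytoplasmic part. The KEGG column of the authors' deposited table names both a DNA-binding factor, on the far lower scores of 65.5 and 89.4. The gene table of the T. canis assembly Toxocara_canis_adult_r1.0 holds 2 genes named vit-6 among 18596, on separate scaffolds; the nearest named neighbour of one is pax3-b and that of the other is Leng1. Which of these genes each unigene stands for was not determined here.

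Unigene14425 was low in the male library and was the most heavily sequenced transcript of the female library. It had 29 fragments in the male library, a level of 0.286 FPKM (95% exact interval 0.192 to 0.411). In the female library it had 1532729 fragments, a level of 14049 FPKM (14028 to 14070). By FPKM it stood at rank 53071 of the 64618 unigenes seen in the male, below 82.1% of them, and by fragment count at rank 22967. In the female it stood at rank 4, behind an eggshell-type transcript described as immunosuppressive ovarian message protein (CL957.Contig5, 21442 FPKM), the lipid-binding polyprotein TBA-1 (Unigene8950, 20594 FPKM) and a further ovarian message protein (Unigene1613, 14081 FPKM).

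Because the transcript is long, its share of fragments exceeded its place by level. Unigene14425 had the highest fragment count of the female library, 2.42 times that of the next unigene, CL957.Contig5. Its female fragments outnumbered those on the 50603 least-counted female unigenes together, which are 86.6% of the 58435 unigenes seen there. The counts correspond to 278 fragments per base of the transcript in the female and 0.00526 in the male library.

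The ratio of library shares for Unigene14425 was 49051 (34154 to 73241), the highest point value among the 52786 unigenes seen in both libraries. The counts do not settle the top place, since Unigene41679, with 1 male fragment, had a ratio of 34705 (6228 to 1370804). The width of the interval comes from the 29 male fragments. They amount to 18.9 male fragments per 1000000 female fragments of the same transcript. For other transcripts among the 10 most abundant of the female library that figure was 1656 for CL957.Contig5, 2811 for Unigene1613, 359 for Unigene7099, a match to the C. elegans protein R102.1, and 804 for Unigene8349, a further ovarian message protein. It was 180612 for TBA-1 and 501565 for Unigene23181, which lies outside the authors' calls and so carries no name here. Both were abundant in each sex. Unigene42069, Unigene42071 and Unigene39705 had 0 male fragments.

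Unigene4105 was well expressed in both libraries. It had 7119 fragments and 73.6 FPKM (71.9 to 75.3) in the male, and 105048 fragments and 1008 FPKM (1002 to 1014) in the female. It stood at rank 1366 of the male library, above 97.9% of the unigenes seen there, and at rank 82 of the female library. Its female level was 13.7-fold higher (13.4 to 14.0), and 1486 unigenes seen in both libraries had a higher female-to-male ratio.

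**Figure D1:**
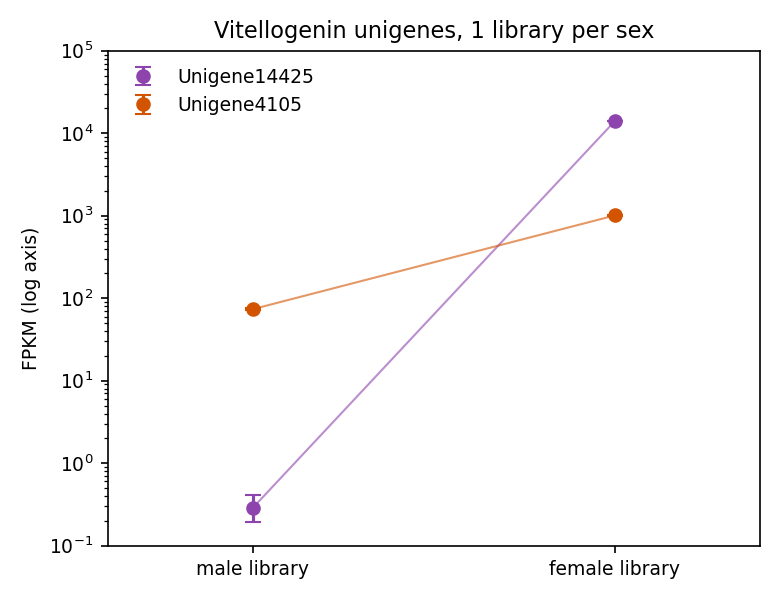
Level in FPKM (log axis) of Unigene14425 (purple) and Unigene4105 (orange) in the male and the female library, with exact 95% counting intervals; each point is 1 library. Unigene14425 goes from 0.286 to 14049 FPKM and Unigene4105 from 73.6 to 1008 FPKM, so the lines cross.

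The order of the unigenes was opposite in the libraries. In the male, Unigene4105 was 257-fold above Unigene14425 in FPKM (179 to 384) and made up 99.6% of the summed vitellogenin level. In the female, Unigene14425 was 13.9-fold above Unigene4105 (13.9 to 14.0) and made up 93.3% of that sum. The ratio of Unigene14425 to Unigene4105 was thus 3582 times higher in the female than in the male library.

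Summed over both unigenes, vitellogenin reached 73.9 FPKM in the male against 15057 FPKM in the female library, which is 204-fold higher. It took 0.0389% of male fragments (Clopper-Pearson 0.0380 to 0.0398%) and 8.28% of female fragments (8.27 to 8.29%). This sum lies far from both of the single ratios, since the male value is nearly all Unigene4105 and the female value nearly all Unigene14425.

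The unigenes have the same best protein match, and how the authors counted fragments that match both is not given in the sources used here. In the male library the fragments on Unigene14425 were 0.407% of those on Unigene4105 (0.273 to 0.585%), so no more than that share of them can have been placed there from Unigene4105. The reverse direction has no such check. The female fragments on Unigene4105 above its male level equal 6.35% of those on Unigene14425, and whether some of them belong to Unigene14425 was not tested. Those fragments are 92.7% of all female fragments on Unigene4105, so its 13.7-fold difference and its female rank are uncertain.

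**Figure D2:**
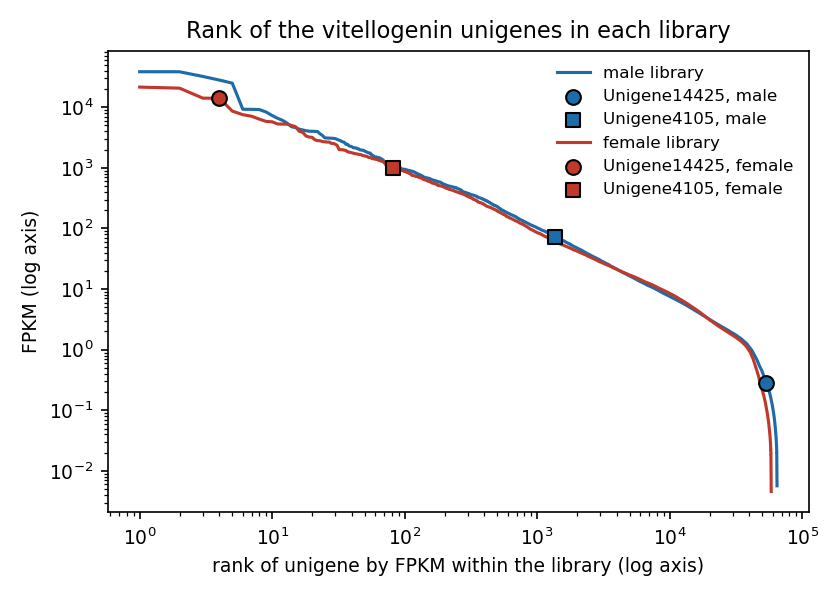
Level in FPKM against the rank of each unigene within its library (both axes log), for the male (blue) and the female library (red); circles mark Unigene14425 and squares Unigene4105. The curves run close together, while Unigene14425 moves from rank 53071 in the male to rank 4 in the female and Unigene4105 from rank 1366 to rank 82.

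A size rule served as the yardstick for all other transcripts. A unigene passed where the higher of its levels reached 5 FPKM and the log2 ratio of female to male, after 1 FPKM was added to each, was 2 or more in size. That is a 4-fold difference, and the added 1 FPKM shrinks the ratios of low unigenes. Both vitellogenin unigenes passed it on the female side, at 13.41 for Unigene14425 and 3.76 for Unigene4105, where 2.38% of all unigenes did; 4.5% passed it on the male side. Among the 972 unigenes at least as long as Unigene4105, 10 passed on the female side, which is 1.03% and includes both vitellogenins, and 15 on the male side, which is 1.54%. In that length class the highest female level after both vitellogenins was 651 FPKM.

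Vitellogenin also bears on the female level of every other transcript, because FPKM is scaled to the library total. With both unigenes left out of that total, each other female FPKM value is 1.09 times higher, and each male value 1.0004 times. For the 44525 unigenes with a mean of at least 1 FPKM, the median log2 ratio of female to male moved from 0.20 to 0.30. The size rule then gave 1951 unigenes higher in the female library in place of 1669, and 3122 in place of 3160 higher in the male.

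A further 10 unigenes carried the word vitellogenin only through weak matches to vertebrate proteins, with Swiss-Prot scores between 61.2 and 75.1 in the authors' deposited table. All 10 had their higher level in the male, and 4 of them met the size rule. The 4 matched vitellogenin-2 of the chicken. Unigene29259 reached 194 FPKM in the male and had 0 female fragments, which is at least 892-fold higher against a bound of 3 fragments in the female library. Unigene29177 was at 68.9 FPKM with 0 female fragments, at least 662-fold higher. Its first Nr match was a low-quality predicted vitellogenin-2 of the zebra finch with a score of 67.4 in the authors' deposited table, so it shares the word but not the nematode match, and it was not counted as a yolk precursor here. CL1937.Contig2 was at 75.8 FPKM in the male and had 1 female fragment, a ratio of 4164 (747 to 164492), and CL1937.Contig1, a contig of the same cluster, was at 8.53 FPKM with 0 female fragments.

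The other 6 matched a killifish vitellogenin-1, were between 0.470 and 0.816 FPKM in the male and had 0 female fragments; 5 of them are contigs of cluster CL13 and share sequence. Together the 10 unigenes held 8804 male fragments and 1 female fragment. Their KEGG names include a DNA topoisomerase and a splicing factor, and their Nr matches are mostly uncharacterized proteins. What these transcripts encode was not determined here.

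**Figure D3:**
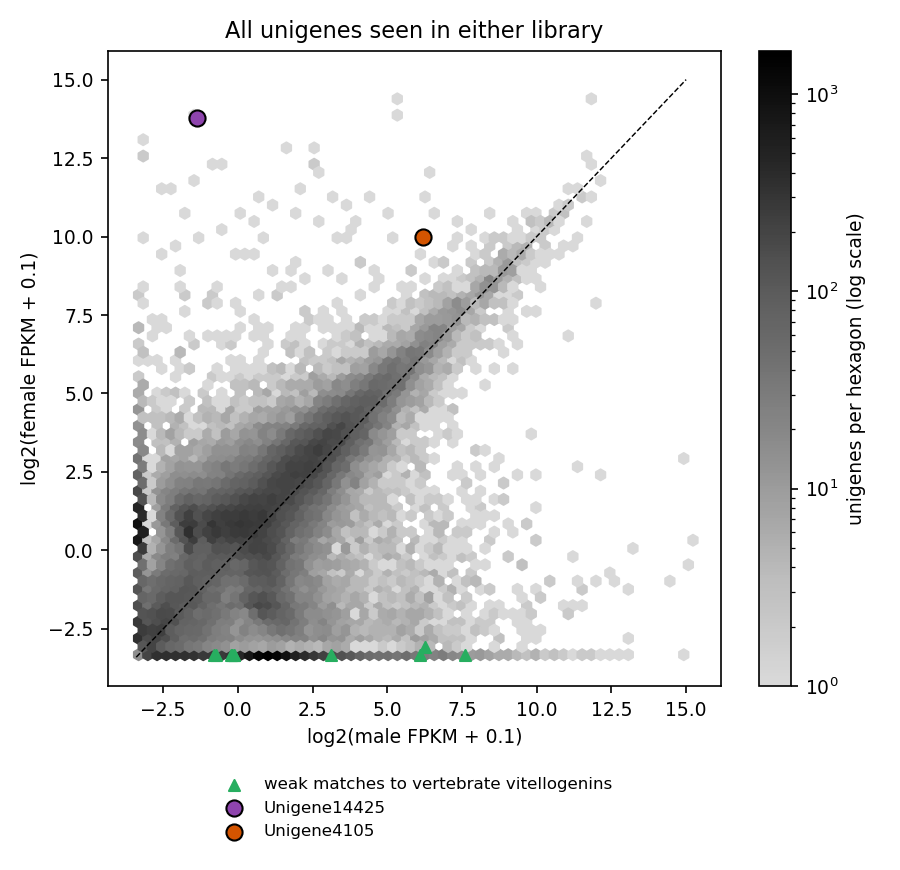
Female against male level as log2(FPKM + 0.1) for all 70267 unigenes, with grey hexagons shaded by the number of unigenes and a dashed line of equal levels; circles mark Unigene14425 (purple) and Unigene4105 (orange), and green triangles the 10 weak matches to vertebrate vitellogenins. Unigene14425 lies at the upper left and the green triangles lie along the lower edge, where female fragments were 0 or 1.

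The route of yolk into the oocyte was represented by a list of 22 endocytosis unigenes. It held 15 unigenes with their higher level in the female. The size rule was met by 4 of these and by 1 on the male side, and the median log2 ratio was 0.98, against 0.32 over the 8589 described unigenes of the authors' table. Of those described unigenes 50.5% were higher in the female library, 8.77% passed the size rule on the female side and 15.9% passed it on the male side. List members and described unigenes alike had been called different beforehand, so no list median measures the shift of a whole pathway. No member of the yolk-related lists differed by less than 2.02-fold (Unigene4035), so the size of a list median adds little to its direction count. Tissue marker lists had medians of 1.27 (intestine), 0.89 (muscle), 1.34 (cuticle and hypodermis), 6.82 (oocyte and eggshell) and -4.98 (sperm). Medians near 1 were thus not particular to the yolk-related lists. Of the 7 unigenes with a lipoprotein receptor description, 6 were higher in the female. The other, an lrp-1 match (CL5858.Contig1), had levels of 2.50 (male) and 0.0069 FPKM (female), with 337 and 1 fragments and a male-to-female ratio of 363 (64.7 to 14385). One of the 7 endocytosis unigenes higher in the male, CL472.Contig3, matches the mitochondrial fusion protein OPA1 and is no endocytosis gene.

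A lipoprotein receptor precursor (Unigene4978), whose Swiss-Prot match is the endocytic receptor LRP2, was at 11.7 FPKM in the male against 192 FPKM in the female, 16.4-fold higher (15.3 to 17.6). A protein with low-density lipoprotein receptor class A domains (Unigene2470), matching a sortilin-related receptor, was at 0.901 and 193 FPKM, 214-fold higher (153 to 309). Neither was named RME-2 in the table. The 3 contigs of a Rab-11 match (cluster CL940), a small GTPase of recycling endosomes, were also higher in the female, 2 of them by the size rule. On the male side stood an EH-domain protein (CL1987.Contig2) at 8.45 against 0.0706 FPKM, with 2 female fragments and a ratio of 120 (32.7 to 994). Both unigenes described as RME1, an EH-domain protein of endocytic recycling, were seen in the male library with 0 female fragments, at 1.96 and 1.64 FPKM.

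In the lists drawn up for lipid loading and lipid carriers, nearly all unigenes were higher in the female library. In the lipoprotein assembly list 11 of 12 unigenes were higher in the female and 3 passed the size rule, with a median of 1.01. The list includes StAR-related and glycolipid transfer matches and a partial lipid transfer protein (Unigene42337), which is among the 3. These entered through the words lipid transfer protein, and whether they take part in lipoprotein assembly was not tested. The apolipophorin match (Unigene8806), of the same large lipid transfer family as vitellogenin, had a male level of 69.4 FPKM and a female level of 382 FPKM, 5.50-fold higher (5.40 to 5.61). Its male level is thus near that of Unigene4105. Diacylglycerol acyltransferase (Unigene1546), which makes triglyceride, was at 5.26 and 27.3 FPKM. The microsomal triglyceride transfer protein match (CL101.Contig5), which loads lipid onto lipoproteins, was low at 0.180 and 0.670 FPKM, from 11 and 44 fragments. Protein disulfide-isomerase 2 (Unigene23229), a folding enzyme of the endoplasmic reticulum, was at 456 and 966 FPKM, 2.12-fold higher (2.08 to 2.16).

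In the body cavity lipid carrier list 10 of 11 were higher in the female and 5 met the size rule; the median was 1.92. TBA-1 (Unigene8950), the polyprotein that binds fatty acids and retinol, went from 4008 to 20594 FPKM, while the ABA-1 match Unigene23209 went from 56.7 to 455 FPKM. Unigene41224, counted among both the 10 and the 5 through the name TBA-1, is an alpha tubulin and no lipid carrier. Soma ferritin (Unigene15799), an iron storage protein, was the one match in the list of other storage proteins, at 41.1 and 116 FPKM.

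**Figure D4:**
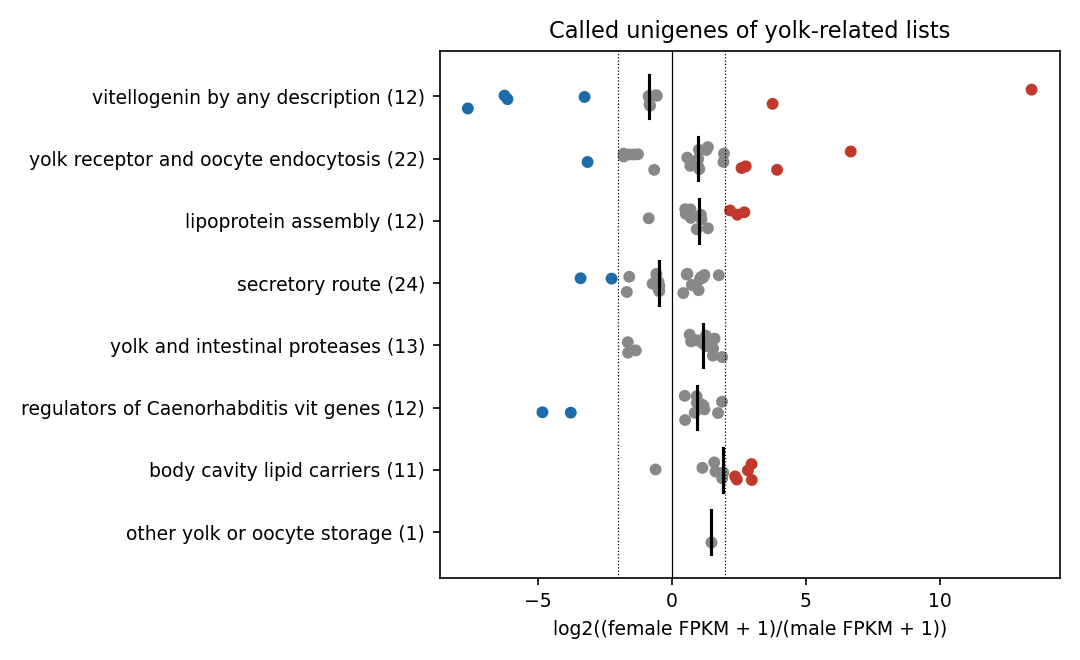
Log2((female FPKM + 1)/(male FPKM + 1)) of each called unigene in 8 yolk-related lists, with the number of unigenes in brackets; red points passed the size rule on the female side, blue points on the male side and grey points on neither, dotted lines mark 4-fold and short bars the list median. Unigene14425 stands apart at 13.41. The medians of the receptor, assembly, protease, regulator and carrier lists lie between 0.93 and 1.92. Those of the secretory list and of the list with vitellogenin in any description are -0.47 and -0.84. Of the 24 secretory points, 11 are contigs of 1 Sec24B cluster.

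The secretory and protease lists held no unigene past the size rule on the female side. In the secretory list 10 of 24 were higher in the female, among them Sec61 alpha (Unigene8896), the channel through which secreted proteins enter the endoplasmic reticulum, at 202 FPKM in the female, 2.13-fold higher (2.05 to 2.21). The median log2 ratio of this list was -0.47. The 14 higher in the male include 11 contigs of 1 Sec24B cluster (CL93), which may share reads. Of the 13 members outside this cluster, 10 were higher in the female. Summed over the list, levels were 275 (male) and 498 FPKM (female). Both contigs of a Sec61 beta cluster (CL4056) passed the rule on the male side, while the more abundant Sec61 beta unigene (Unigene1662) was at 35.4 and 83.5 FPKM. In the protease list, drawn up for cathepsins and aspartic proteases, enzymes of digestion and yolk breakdown in nematodes, 10 of 13 were higher in the female with a median of 1.15. Of the other 3, 2 are aspartyl protease inhibitors and no proteases (Unigene27549 and Unigene35276). The most abundant member was an aspartic protease (CL2148.Contig1) at 90.5 and 219 FPKM.

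Matches to known regulators of C. elegans vit genes stood at 42.9 FPKM or below in both libraries. Of 12, 10 were higher in the female, none by the size rule, and 2 passed it in the male. These 2 are 16.7% of the list, close to the 15.9% of all described unigenes. Smad matches made up 5 of the 12, all higher in the female, among them Unigene6941 at 42.9 FPKM in the female. Whether any of the 12 acts on vitellogenin in T. canis was not tested. DM-domain or mab-3 matches made up 5 of the 12, of which 3 were higher in the female and 2 in the male. The mab-3 match CL2133.Contig2 had levels of 17.8 FPKM (male) and 0.384 FPKM (female), and CL4948.Contig2 reached 27.3 FPKM in the male against 0 female fragments, at least 183-fold higher. The 3 higher in the female were the mab-3 match Unigene10011 at 1.45 and 4.19 FPKM, Unigene15551 at 0.765 and 4.83 FPKM, and CL5714.Contig1 at 0.0535 and 0.472 FPKM. The match to elt-2 (CL2353.Contig2), the GATA factor of the intestine, was at 0.467 and 1.65 FPKM from 21 and 80 fragments. The homeobox protein ceh-20 (CL2817.Contig2), a partner of UNC-62, was at 2.32 and 11.1 FPKM. No called unigene carried the name unc-62, ceh-60, pqm-1 or daf-16; unigenes outside the authors' calls carry no name here.

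The described unigenes nearest to each vitellogenin were taken by distance in log2(FPKM + 0.1) over both libraries, a likeness that rests on only 2 values per transcript. Nearest to Unigene14425 were CL2498.Contig1, a match to an uncharacterized protein, at 0.405 and 4777 FPKM, and the ovarian message protein Unigene3521 at 0.526 and 5003 FPKM. They lay 1.60 and 1.64 log2 units away. A trypsin inhibitor match (Unigene39700), a histidine-rich protein (Unigene39705) and a match to the C. elegans protein ZK970.7 (Unigene41679) followed at 2.13 to 2.57 units, and none of the 5 was above Unigene14425 in the female library.

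Nearest to Unigene4105 was a transthyretin-like protein (Unigene13765), of a nematode family of secreted proteins, at 90.6 and 1655 FPKM and a distance of 0.78. An uncharacterized protein (Unigene11223) at 37.9 and 1061 FPKM, a further uncharacterized protein (Unigene1449), a chondroitin proteoglycan 3 match (Unigene23740) and polyubiquitin (CL1560.Contig3) completed the 5, the last at a distance of 1.18.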

How the data were processed

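For each library the deposited files hold unigene lengths, raw fragment counts and FPKM values, per the file headers. The FPKM values deposited equal count over length and library total, to within 5.0e-05. The authors' own table adds log2 ratios, p-values and alignment scores of the best protein matches for called unigenes, per the file headers; its p-values were not used. The assembler, aligner and counter were not given in the sources used here. A unigene missing from a library's table was taken as 0 fragments.

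Ratios are of library shares, with exact 95% binomial intervals. A ratio against 0 fragments is a bound set at 3 fragments per library. Vitellogenin unigenes were found by the first Nr description. Lists were found by search patterns in the Swiss-Prot and first Nr descriptions, after removal of the organism names. The members and lists were chosen with earlier results of these data known. Named genes are the members, all vitellogenin matches, the 10 highest female unigenes and the 5 nearest to each member. From each list, genes were drawn from the 3 most abundant by mean FPKM and, in each direction, the outermost past the size rule. Not all of these list genes are described above. Others in the lists (Unigene1546, CL101.Contig5, Unigene1662, Unigene10011, CL2353.Contig2, CL2817.Contig2, CL2133.Contig2, Unigene15551, CL5714.Contig1, CL5858.Contig1, CL472.Contig3, Unigene27549, Unigene35276, Unigene41224, Unigene4103, Unigene8768 and the RME1, Rab-11 and Sec24B contigs) were named after their values were seen. R 4.3.3 with edgeR 4.0.16 (scaling factors only) and Python 3.11.15 with pandas 2.3.3, SciPy 1.17.1, NumPy 2.4.6 and matplotlib 3.10.9 were used, and the ratios and the size rule were tested on simulated counts.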

Additional observations from a re-analysis of the deposited data

How the results depend on the processing

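Scaling the libraries by edgeR's TMM factors or by the median of count ratios lowered every log2 ratio of female to male by 0.41 or 0.42, and both vitellogenin unigenes stayed higher in the female library under all settings tried. For Unigene4105 the log2 ratio was 3.78, and it was 3.90 with both vitellogenins left out of the total, 3.36 with TMM, 3.35 with the median of count ratios and 3.82 with the upper quartile of counts. The same 4 settings gave 7.80, 7.26, 7.25 and 7.72 for the summed level, against 7.67. For Unigene14425 they stayed within the counting interval of its 15.58, and a pseudocount of 1 FPKM gave 13.41. Without scaling to length, the log2 ratio of Unigene14425 to Unigene4105 in the female library was 3.87 in place of 3.80. Counting every unigene with vitellogenin in any description raised the male share from 0.0389% to 0.0869%. Over the 107 unigenes of all yolk-related lists, 14 passed the size rule on the female and 9 on the male side. The 14 include both vitellogenins and the tubulin Unigene41224, and the 9 include 4 of the weak vertebrate matches. Over all described unigenes 8.77% passed on the female and 15.9% on the male side. With Nr descriptions alone, which leave 53 of the 107, 10 and 4 passed. No paired analysis was possible because each sex has 1 library, and for the same reason no library could be left out. Unigenes outside the authors' calls carry no description, so further vitellogenin or receptor transcripts could not be looked for there.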
